A study of Homo sapiens with 12 samples.

Results

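Genes of the epidermal growth factor receptor (EGFR) system, 10 of the 23459 in the count table, were followed across 12 RNA-seq libraries. The rule names the members and sets no threshold on their values. They comprised 6 ligands (AREG, EREG, BTC, HBEGF, TGFA and NRG1), 3 receptors (EGFR, ERBB2 and ERBB3) and 1 inhibitor of the receptors (ERRFI1). Each was found as 1 row of the table by its Entrez gene ID, and 10 of 10 passed the filter on low counts that left 14775 genes for testing.

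The libraries came from MCF10A cells, a non-tumorigenic human breast epithelial line, carrying an allele of YAP5SA that doxycycline (Dox) switches on. YAP5SA is a mutant of the transcriptional coactivator YAP that escapes inhibition by the Hippo kinases. The cells were infected with an empty vector or with a vector for overexpression of JUN, a subunit of the AP-1 transcription factor, and were then treated with Dox at 100 ng/ml or with ethanol (EtOH), the solvent. The 4 groups of 3 libraries are named by vector and treatment (vector EtOH and vector Dox, JUN EtOH and JUN Dox), and the study was made to ask how JUN affects YAP target genes. All 4 groups carried the inducible allele and grew with horse serum, insulin, hydrocortisone, cholera toxin and 20 ng/ml of recombinant human EGF, a ligand of EGFR, so no group lacked EGFR ligand. No group received Dox without the inducible allele, so effects of Dox and of YAP5SA cannot be told apart. The study describes the 3 samples per condition as biological replicates.

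Total counts ranged from 18594867 to 28993487 per library. JUN averaged 47.6 ± 10.5 CPM (counts scaled to library size, SD, n = 3) in vector EtOH libraries and 189.7 ± 4.15 after Dox, against 1279 ± 187 and 1248 ± 92.3 in JUN EtOH and JUN Dox libraries, as the labels say. It rose 3.98-fold with induction in vector cells (edgeR adjusted p = 3.09e-07). YAP1 averaged 179 ± 10.5, 237 ± 31.5, 234 ± 20.9 and 280 ± 79.3 CPM in the same order and was not called in any comparison, although the counts do not separate the allele from the endogenous gene. YAP1 was called higher on induction in vector cells with a term for GC deviation (adjusted p = 0.00406), with the replicate block and that term (0.00631), in the libraries of the comparison alone (0.0384) and without JUN Dox replicate 1 (0.0276) or 3 (0.0317). It was called higher with JUN without induction in the same 5 fits (adjusted p from 0.00251 to 0.0306), and with JUN during induction without JUN Dox replicate 3 (0.0374). Of 6 basal mammary markers, 6 were detected in each group, with KRT5 at 4615 CPM in vector EtOH. The summed basal markers ranged from 8456 to 9071 CPM in vector EtOH and from 9119 to 10511 in JUN EtOH, against 4598 to 5617 in vector Dox and 5747 to 8231 in JUN Dox. With Dox the mean of each of the 6 basal markers was lower than with EtOH in both backgrounds, with library ranges that overlapped for KRT5 in JUN cells. Between vector and JUN cells the sums hide opposite directions. Between vector EtOH and JUN EtOH the means of KRT5 (4615 to 3521 CPM) and ITGB4 (758 to 449) fell. Those of LAMB3 (1444 to 3566), KRT14 (209 to 481) and TP63 (14.2 to 27.4) rose, and KRT17 (1662 to 1704) changed little. The summed luminal markers, of which 5 or 6 of 7 were above 3 counts in a group, were mostly KRT8 and KRT18. The 5 endothelial markers summed to 0.782 to 2.93 CPM. The 5 immune markers summed to 318 to 567 CPM, nearly all of it CSF1R (354 to 455 CPM on average in a group) and CD14 (2.72 to 26.9), while PTPRC was at or near 0 and CD3E was at 0 in all 12 libraries. The 7 fibroblast markers summed to 111 to 162 CPM, mostly PDGFRA (92.2 to 132 CPM on average) and DCN (3.15 to 17.7), while COL1A2 and COL3A1 were at or near 0. The part of these markers in the results was not tested. In bulk RNA, fewer cells of a type and less RNA per cell cannot be told apart.

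EGFR and its relatives ERBB2 and ERBB3 are receptor tyrosine kinases that pair up when a ligand binds. The ligands are made as membrane-anchored precursors, and proteases of the ADAM family cut them free so that they reach the same cell or its neighbours. AREG, EREG, BTC, HBEGF and TGFA bind EGFR, whereas the neuregulin NRG1 binds ERBB3 and ERBB4. ERBB2 binds no ligand of its own and acts as the preferred partner of the others, and ERBB3 has little kinase activity and couples strongly to PI3K. ERRFI1 (also called MIG6) binds the kinase domains and shuts the receptors down. Breast epithelial cells use this system to grow, and AREG is the ligand that drives duct outgrowth in the mammary gland.

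Promoter sequence is shown first for the 3 members whose window held a match to a motif of the factors manipulated here. The window ran from 250 bases before to 50 bases after the gene start in RefSeq (GRCh38.p14), and 8 of the 10 members had an entry, with NRG1 and ERBB3 as the others. On both strands, the AP-1 motif TGANTCA, the cAMP response element TGACGTCA, which JUN can bind with ATF partners, and the core TEAD motif GGAATG were searched. Among 35116 promoter windows of 300 bases, 7.71% held the AP-1 letters, 1.85% the response element and 14.0% the TEAD letters, and none of the 3 is contained in another. AREG held the response element at position -65, EREG the TEAD letters at -175 on the reverse strand and ERBB2 the AP-1 letters at -222, counted from the gene start. The 250 bases before the start are printed for AREG (chr4:74444886-74445135, plus strand), EREG (chr4:74364895-74365144, plus strand) and ERBB2 (chr17:39687844-39688093, plus strand), with the matched letters in capitals.
AREG: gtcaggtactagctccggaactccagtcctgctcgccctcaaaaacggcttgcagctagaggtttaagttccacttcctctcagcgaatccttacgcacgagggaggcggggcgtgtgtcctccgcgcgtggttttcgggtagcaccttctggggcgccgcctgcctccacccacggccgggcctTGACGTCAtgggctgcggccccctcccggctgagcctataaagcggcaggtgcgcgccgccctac
EREG: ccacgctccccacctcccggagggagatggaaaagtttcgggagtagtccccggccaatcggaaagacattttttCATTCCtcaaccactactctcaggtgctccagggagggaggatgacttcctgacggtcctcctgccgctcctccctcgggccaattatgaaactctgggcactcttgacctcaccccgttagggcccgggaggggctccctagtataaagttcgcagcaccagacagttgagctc
ERBB2: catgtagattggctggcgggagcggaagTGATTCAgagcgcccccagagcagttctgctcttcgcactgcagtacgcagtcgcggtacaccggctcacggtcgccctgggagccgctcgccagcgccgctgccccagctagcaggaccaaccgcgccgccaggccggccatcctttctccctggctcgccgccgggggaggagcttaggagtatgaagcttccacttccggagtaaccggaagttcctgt
No match was found in the windows of BTC, HBEGF, TGFA, EGFR and ERRFI1, which says only that these letters were not in these windows. A match is a description and not a measured binding site.

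Induction of YAP5SA in vector cells moved 6 of the 10 members. AREG (2.69-fold) and NRG1 (15.9-fold) rose, and EREG, BTC, ERBB2 and ERRFI1 fell, 1.25-fold to 2.26-fold. The median log2 fold change of the members was 0.37, against 0.0072 over all genes tested. Of all 14775 genes, 30.1% were called in this comparison, 15.6% as higher and 14.4% as lower. Calls here and throughout are adjusted p-values under 0.05 from the quasi-likelihood test of edgeR.

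The JUN vector without induction moved 7 members, and those that rose were 5 of the 6 ligands. EREG rose 5.94-fold, HBEGF 4.57-fold, AREG 3.70-fold, TGFA 2.64-fold and BTC 1.84-fold, and ERBB3 and ERRFI1 fell 1.57-fold and 1.27-fold. The median of the members was 0.72 on the log2 scale, and that of the 6 ligands 1.64, against 0.00056 over all genes. In this comparison 39.0% of all genes were called, 20.1% as higher and 18.9% as lower. This comparison and the induction in vector cells share the vector EtOH libraries.

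In JUN cells, induction moved 6 members. AREG (2.08-fold) and NRG1 (6.24-fold) rose, and EREG, BTC, HBEGF and ERRFI1 fell, 1.35-fold to 2.14-fold. The members' median was -0.24 on the log2 scale, beside 0.0032 over all genes. Here 21.4% of all genes were called, 11.2% as higher and 10.3% as lower.

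With YAP5SA induced, JUN Dox differed from vector Dox in 7 members. EREG (6.29-fold), AREG (2.86-fold), HBEGF (2.19-fold), TGFA (2.10-fold) and ERRFI1 (1.25-fold) were higher, and NRG1 (2.88-fold) and ERBB3 (2.48-fold) were lower. The median of the members was 0.54 against 0.0030 over all genes, and 35.6% of all genes were called, 18.4% as higher and 17.2% as lower.

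Whether the JUN vector changed the response to induction was tested as an interaction, which subtracts the log2 induction of vector cells from that of JUN cells. HBEGF (-1.06) and NRG1 (-1.35) were called, both lower, and the other 8 members were not. Over all genes, 1.12% were called, 0.291% as higher and 0.826% as lower.

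**Figure D1:**
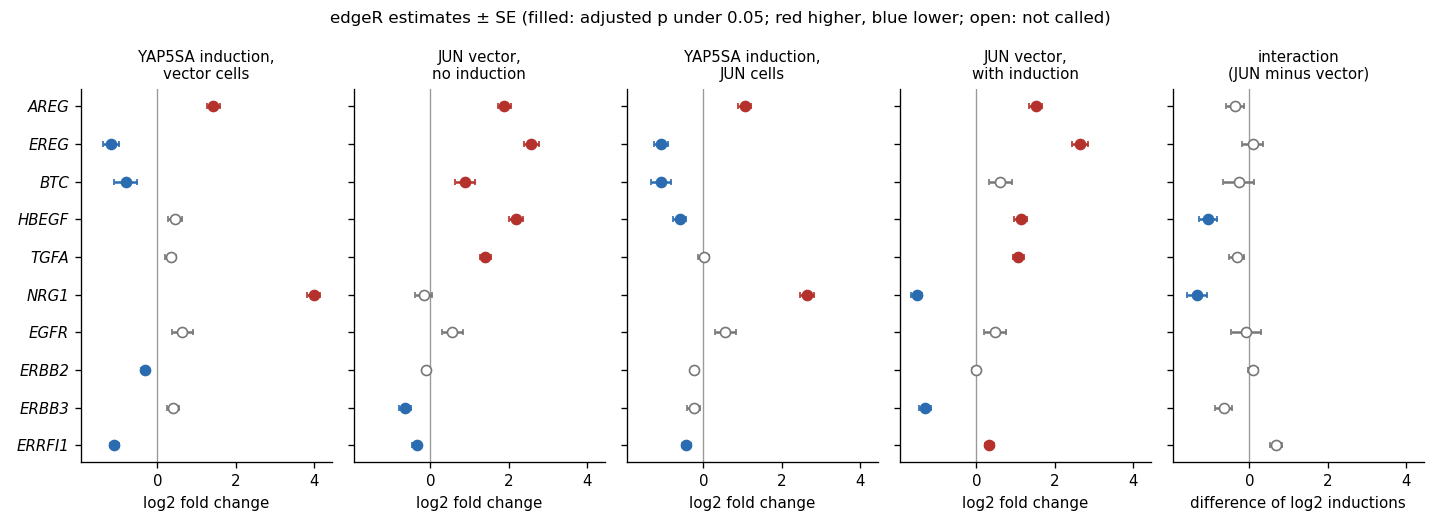
Log2 fold change of each member (x axis) in the 4 pairwise comparisons and difference of log2 inductions in the interaction, with bars of 1 SE from the fit over all 12 libraries. Filled points were called (red higher, blue lower) and open points were not. AREG lies to the right in the 4 pairwise comparisons, EREG to the left in both inductions and to the right in both JUN comparisons, and NRG1 at 3.99 and 2.64 in the inductions.

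AREG, which encodes amphiregulin (Entrez 374, GRCh37 chr4:75310853-75320722, plus strand), was the ligand with the most counts. Its level was 216, 208 and 216 CPM in vector EtOH replicates 1 to 3 and 716, 483 and 520.2 CPM in vector Dox. In the JUN EtOH libraries it stood at 889, 815 and 665 CPM, and in JUN Dox at 1906, 1596 and 1418 CPM. The 3 JUN Dox libraries were above the other 9, the 3 vector EtOH libraries were below the other 9, and JUN EtOH and vector Dox overlapped. Induction raised AREG by 1.43 on the log2 scale (SE 0.16, adjusted p = 1.14e-05) in vector cells and by 1.05 (SE 0.16, adjusted p = 0.000287) in JUN cells. The JUN vector raised it by 1.89 (SE 0.16, adjusted p = 7.26e-07) without induction and by 1.52 (SE 0.16, adjusted p = 5.58e-06) with it. The interaction was -0.37 (SE 0.22, adjusted p = 0.729), so the gain from both together was not told apart from the sum of both on the log2 scale. The level of AREG is uncertain, because GRCh37 also carries AREGB at chr4:75480629-75490486, a copy in which 97.6% of the 50-base windows of the AREG exons recur letter for letter, and AREGB has no row in the table.

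EREG encodes epiregulin (Entrez 2069, GRCh37 chr4:75230862-75254466, plus strand) and went in opposite directions with YAP5SA and with JUN. Its level was 18.63, 14.8 and 12.9 CPM in vector EtOH and 7.37, 6.49 and 6.65 CPM in vector Dox. JUN EtOH held 111, 90.4 and 74.9 CPM and JUN Dox 53.1, 44.5 and 31.8 CPM. The 4 groups did not overlap, in the order JUN EtOH, JUN Dox, vector EtOH and vector Dox, with 13.5 times between the highest and the lowest mean. Induction lowered EREG by nearly the same factor in both backgrounds, with log2 fold changes of -1.18 (SE 0.20, adjusted p = 0.000461) in vector cells and -1.10 (SE 0.18, adjusted p = 0.000535) in JUN cells. The JUN vector raised it by 2.57 (SE 0.19, adjusted p = 1.53e-07) and 2.65 (SE 0.20, adjusted p = 1.74e-07) without and with induction. The interaction was 0.08 (SE 0.27, adjusted p = 0.98).

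BTC, which encodes betacellulin (Entrez 685, GRCh37 chr4:75669969-75719733, minus strand), moved in the same directions as EREG at a level near 1 to 6 CPM. Vector EtOH libraries held 2.51, 2.35 and 2.56 CPM of BTC and vector Dox libraries 1.31, 1.08 and 1.82. JUN cells held 6.12, 3.75 and 3.80 CPM with EtOH and 3.01, 1.77 and 1.74 with Dox. Each Dox group lay below its EtOH group, and JUN Dox overlapped both vector groups. The fall in JUN cells was -1.08 on the log2 scale (SE 0.26, adjusted p = 0.00867) and that in vector cells -0.81 (SE 0.29, adjusted p = 0.0457), and the rise with JUN was 0.88 (SE 0.26, adjusted p = 0.0158). JUN Dox against vector Dox gave 0.61 (SE 0.29, adjusted p = 0.116) and was not called. JUN EtOH replicate 1 carried much of this. Without it the adjusted p was 0.111 for the rise with JUN and 0.0617 for the fall in JUN cells, and the rise was also lost without vector EtOH replicate 2 (adjusted p = 0.0519). The fall in vector cells lost its call in 8 of 12 fits that left out 1 library each (any vector EtOH library, vector Dox replicates 1 and 2, JUN EtOH replicates 2 and 3 or JUN Dox replicate 2), with an adjusted p of up to 0.135.

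AREG, EREG and BTC lie together on chromosome 4. Within the 546 kb from the start of EPGN to the end of BTC (GRCh37 chr4:75174187-75719733) the table had 4 rows, and these were the EGF-family ligands EPGN, EREG, AREG and BTC. EPGN, which encodes epigen and is no member, averaged 75.8 ± 6.10 CPM with EtOH and 67.0 ± 3.27 with Dox in vector cells, and 314 ± 63.0 and 502 ± 72.5 CPM in JUN cells (SD, n = 3). The JUN vector raised EPGN by 2.05 on the log2 scale without induction (SE 0.14, adjusted p = 8.95e-08) and by 2.90 with it (SE 0.15, adjusted p = 3.83e-09). Without induction the 4 neighbours were thus called higher with JUN, by 0.88 to 2.57 on the log2 scale. With induction the cluster parted. AREG rose in both backgrounds, EREG and BTC fell in both, and EPGN changed by -0.18 (SE 0.14, adjusted p = 0.37) in vector cells and rose by 0.68 (SE 0.14, adjusted p = 0.00288) in JUN cells. The interaction of EPGN was 0.86 (SE 0.20, adjusted p = 0.0525) and was not called, so no difference between the backgrounds is drawn for it.

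HBEGF encodes the heparin-binding EGF-like growth factor (Entrez 1839, GRCh37 chr5:139712428-139726188, minus strand). It was read at 8.78, 7.24 and 8.03 CPM in vector EtOH and at 11.9, 9.10 and 11.9 CPM in vector Dox. JUN EtOH held 46.8, 33.2 and 30.2 CPM and JUN Dox 27.7, 21.4 and 23.1 CPM, so the 4 groups did not overlap. The JUN vector raised it by 2.19 on the log2 scale (SE 0.17, adjusted p = 2.92e-07) without induction and by 1.13 (SE 0.17, adjusted p = 0.000125) with it. Induction lowered HBEGF in JUN cells by 0.61 on the log2 scale, a log2 fold change of -0.61 (SE 0.16, adjusted p = 0.0138), and the change in vector cells was 0.45 (SE 0.18, adjusted p = 0.0694). The fall in JUN cells was lost without JUN EtOH replicate 1 (adjusted p = 0.0925) or JUN Dox replicate 2 (adjusted p = 0.0681). The difference of the inductions, -1.06 (SE 0.24, adjusted p = 0.0464), lay close to the threshold and was lost in 9 of 12 fits without 1 library, all but those without JUN Dox replicate 1, JUN EtOH replicate 3 or vector Dox replicate 2, with an adjusted p of up to 0.142.

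TGFA, which encodes transforming growth factor alpha (Entrez 7039, GRCh37 chr2:70674416-70781325, minus strand), was higher in JUN cells. Vector EtOH libraries held 31.8, 26.3 and 26.8 CPM of TGFA and vector Dox libraries 35.1, 37.05 and 35.6. JUN cells held 85.6, 76.0 and 62.5 CPM with EtOH and 87.2, 79.4 and 59.7 with Dox. The 6 JUN libraries were above the 6 vector libraries, and both JUN groups overlapped. JUN raised TGFA by 1.40 on the log2 scale (SE 0.15, adjusted p = 4.3e-06) without induction and by 1.07 (SE 0.14, adjusted p = 4.83e-05) with it. Induction gave 0.34 (SE 0.14, adjusted p = 0.09) in vector cells and 0.01 (SE 0.14, adjusted p = 0.967) in JUN cells, and the interaction was -0.33 (SE 0.20, adjusted p = 0.739).

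NRG1, the neuregulin (Entrez 3084, GRCh37 chr8:31496738-32713184, plus strand), was not called higher with JUN and had the largest response to YAP5SA among the members. It was low without induction, at 2.02, 1.25 and 1.57 CPM in vector EtOH and 1.58, 1.35 and 1.41 CPM in JUN EtOH, where the lowest library still held 25 counts. With induction it stood at 22.0, 28.3 and 28.0 CPM in vector Dox and at 9.63, 8.69 and 8.88 CPM in JUN Dox. Both Dox groups lay above both EtOH groups, and vector Dox lay above JUN Dox, with no overlap. Induction raised NRG1 by 3.99 on the log2 scale (SE 0.17, adjusted p = 7.47e-10) in vector cells and by 2.64 (SE 0.18, adjusted p = 1.64e-07) in JUN cells. The log2 fold change with JUN was -0.17 (SE 0.21, adjusted p = 0.539) without induction and -1.52 (SE 0.14, adjusted p = 1.61e-06) with it. The difference of the inductions was -1.35 (SE 0.26, adjusted p = 0.0151), and it was lost without JUN EtOH replicate 1 (adjusted p = 0.0653) or vector EtOH replicate 3 (adjusted p = 0.0564).

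**Figure D2:**
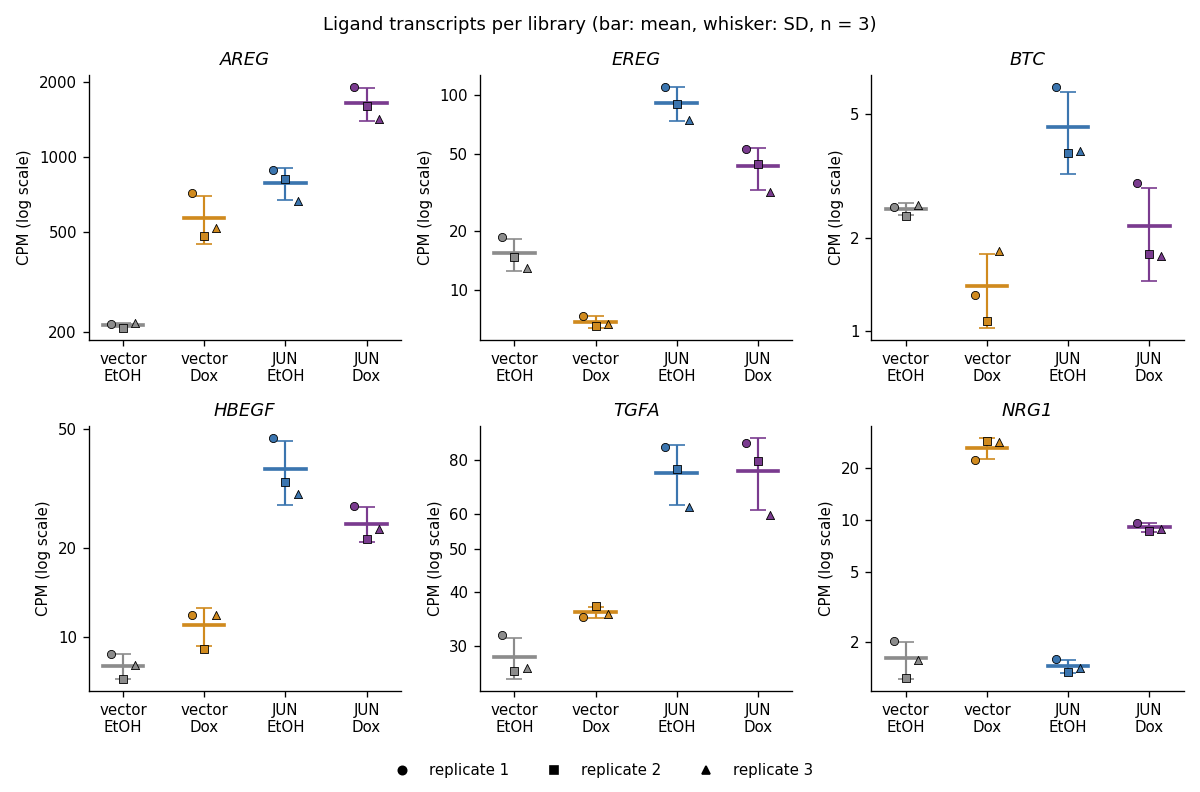
CPM of the 6 ligands (y axis, log scale) in each library of the 4 groups, with a bar at the mean, whiskers of 1 SD (n = 3) and a marker for each replicate number. AREG, EREG and HBEGF are higher in both JUN groups than in the vector group of the same treatment, and NRG1 is higher in both Dox groups, up to 28.3 CPM in vector Dox.

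JUN EtOH replicate 1 had the highest value of its group for 6 of 6 ligands and also for JUN (1399 CPM), and JUN Dox replicate 1 had the highest for 6 of 6 ligands in its own group. Over the tested genes, the deviations of these libraries from their group means correlated with the GC content of the exons, at -0.20 and -0.36. For JUN EtOH and JUN Dox replicates 3 the correlations were 0.22 and 0.36. The other 8 libraries lay between -0.09 and 0.08. With this deviation as a term in the fit, the rises of the 5 ligands with JUN were 0.85 to 2.55 on the log2 scale, and each was called. The term was built from deviations within groups, so it could narrow the spread but could hardly shift these rises. No support for them is drawn from that fit. Without JUN EtOH replicate 1, AREG (1.80), EREG (2.42), HBEGF (1.98) and TGFA (1.29) were called and BTC was not.

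EGFR, the receptor of 5 of the 6 ligands (Entrez 1956, GRCh37 chr7:55086710-55279321, plus strand), was not called in any comparison, a result that turned on vector Dox replicate 1 in 3 of the 4 pairwise comparisons. Vector EtOH libraries held 152, 104 and 128 CPM of EGFR and vector Dox libraries 93.4, 290.5 and 215. JUN cells held 206, 172 and 187 CPM with EtOH and 286, 276 and 269 with Dox. Vector Dox replicate 1 lay below the 11 other libraries, while both other vector Dox libraries lay above every EtOH library. The log2 fold changes were 0.64 (SE 0.27, adjusted p = 0.0922) for induction in vector cells, 0.55 (SE 0.27, adjusted p = 0.116) for JUN without induction, 0.55 (SE 0.27, adjusted p = 0.168) for induction in JUN cells and 0.47 (SE 0.27, adjusted p = 0.182) for JUN with induction. Without vector Dox replicate 1, EGFR was called higher with induction in vector cells (0.97, adjusted p = 0.000173) and in JUN cells (0.55, adjusted p = 0.00651), and with JUN without induction (0.56, adjusted p = 0.00379). Without vector Dox replicate 2 it was called higher with JUN during induction (0.86, adjusted p = 0.0166), a fit that kept the low replicate 1. None of the fits without 1 library called EGFR in all 4 comparisons. Over these 12 fits the change with JUN during induction ranged from 0.14 to 0.86 (adjusted p up to 0.507). That with induction in vector cells ranged from 0.25 to 0.97 (adjusted p up to 0.477). Counts of EGFR and EGFR-AS1 can share reads over 186 exon bases on opposite strands, and the latter held 163 counts on average against 4598 for EGFR.

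ERBB2 (Entrez 2064, GRCh37 chr17:37844167-37886679, plus strand) varied least among the members, with 1.27 times between the highest and the lowest group mean. Vector EtOH libraries held 65.2, 66.4 and 63.8 CPM of ERBB2 and vector Dox libraries 48.7, 55.2 and 52.9. JUN cells held 60.2, 58.0 and 62.9 CPM with EtOH and 46.6, 53.9 and 53.8 with Dox. Each Dox group lay below its EtOH group. The fall in vector cells was called, at -0.32 on the log2 scale (SE 0.091, adjusted p = 0.016), and the change in JUN cells, -0.23 (SE 0.091, adjusted p = 0.0882), was not. The latter was called lower with DESeq2 (adjusted p = 0.0458), a term for GC deviation (0.0300), the replicate block with that term (0.0433) and a minimum mean of 5 CPM (0.0425), so no difference between the backgrounds is drawn from it. JUN changed ERBB2 by -0.11 (SE 0.091, adjusted p = 0.354) without and by -0.02 (SE 0.091, adjusted p = 0.861) with induction. Exons of MIEN1 (571 bases) and PGAP3 (144 bases) overlap those of ERBB2 on the opposite strand, with 586 and 125 counts on average against 1322 for ERBB2, so its count is uncertain to that extent.

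ERBB3, the neuregulin receptor (Entrez 2065, GRCh37 chr12:56470583-56497289, plus strand), was lower with JUN. Vector EtOH libraries held 10.2, 9.83 and 9.65 CPM of ERBB3 and vector Dox libraries 10.3, 14.5 and 14.6. JUN cells held 5.85, 6.95 and 6.05 CPM with EtOH and 4.87, 6.22 and 4.76 with Dox. The 6 JUN libraries were below the 6 vector libraries. The log2 fold change with JUN was -0.65 (SE 0.16, adjusted p = 0.00493) without induction and -1.31 (SE 0.16, adjusted p = 1.87e-05) with it, and ERBB3 fell in both. Induction gave 0.41 (SE 0.15, adjusted p = 0.0567) in vector cells and -0.25 (SE 0.16, adjusted p = 0.314) in JUN cells, and the interaction was -0.66 (SE 0.22, adjusted p = 0.253). Without vector Dox replicate 1, the change with induction in vector cells was called (0.54, adjusted p = 0.00924). The summed luminal markers, mostly KRT8 and KRT18, were likewise lower with JUN. They stood at 708 to 930 CPM with EtOH and 511 to 884 with Dox, against 1282 to 1473 and 1523 to 1543 CPM in the matched vector groups. The other luminal markers were not alike. GATA3 was lower with JUN (means of 18.9 to 14.9 CPM with EtOH and 26.7 to 17.0 with Dox). FOXA1 was lower with EtOH (14.0 to 10.3) and changed little with Dox (11.7 to 11.3). ESR1 was higher at a low level (0.371 to 0.475 and 0.541 to 0.685), and KRT19 and PGR were near 0. The part of these markers in the result was not tested.

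ERRFI1, the inhibitor (Entrez 54206, GRCh37 chr1:8064464-8086369, minus strand), fell most with induction in vector cells. Its level was 49.9, 52.5 and 46.4 CPM in vector EtOH and 20.7, 24.7 and 23.7 CPM in vector Dox. JUN EtOH held 39.3, 40.6 and 36.7 CPM and JUN Dox 32.8, 29.2 and 24.6 CPM, so that vector EtOH was above JUN EtOH, JUN EtOH above both Dox groups, and the Dox groups overlapped. Induction gave -1.11 on the log2 scale (SE 0.11, adjusted p = 4.48e-06) in vector cells and -0.43 (SE 0.11, adjusted p = 0.0132) in JUN cells. JUN lowered it without induction, by a log2 fold change of -0.35 (SE 0.11, adjusted p = 0.0235), and it was 0.32 higher with induction (SE 0.12, adjusted p = 0.0403). The interaction was 0.67 (SE 0.16, adjusted p = 0.0633). The small changes were not stable. The fall with JUN was lost without JUN EtOH replicate 1 or 3 or vector EtOH replicate 1 or 2 (adjusted p up to 0.087), and the fall in JUN cells without JUN Dox replicate 3 or JUN EtOH replicate 2 (adjusted p = 0.0593 and 0.0587). The higher level with JUN during induction was lost in 7 of 12 such fits (without JUN Dox or JUN EtOH replicate 1 or 2, vector Dox replicate 1 or 3 or vector EtOH replicate 1, adjusted p up to 0.154).

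**Figure D3:**
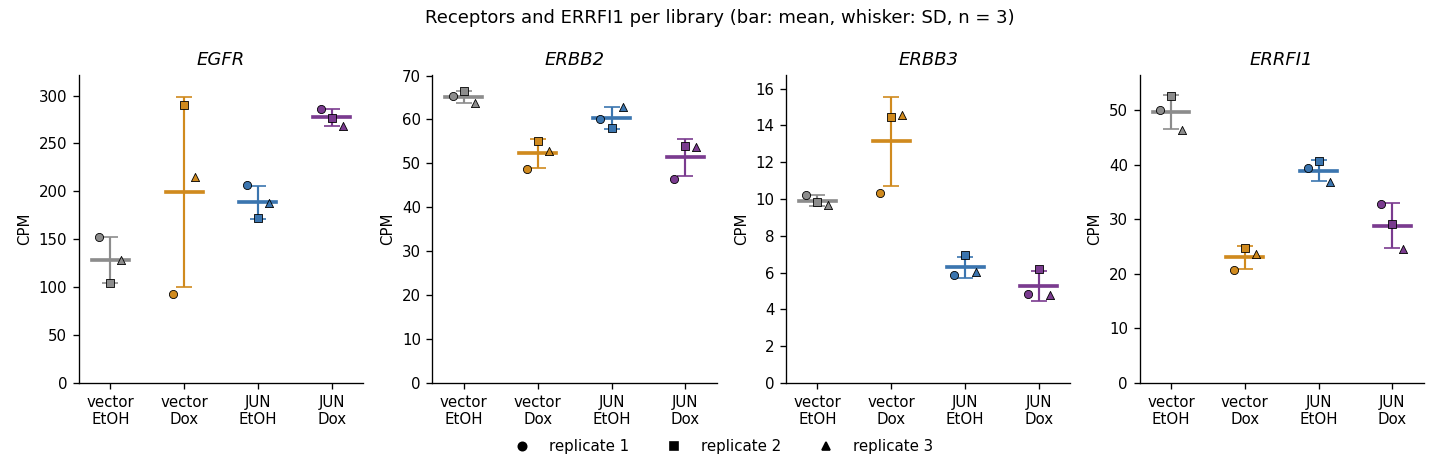
CPM of the 3 receptors and ERRFI1 (y axes from 0) in each library of the 4 groups, with a bar at the mean, whiskers of 1 SD (n = 3) and a marker for each replicate number. Vector Dox replicate 1 stands at 93.4 CPM of EGFR against 290.5 and 215 in its group, and ERBB3 is below 7 CPM in the 6 JUN libraries.

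Groups that did not overlap were common over all genes, so they carry little on their own. Members whose groups did not overlap numbered 9 of 10 for induction in vector cells, where 43.9% of all genes did not overlap, and 9 for JUN without induction, where 57.8% did not. They numbered 8 for induction in JUN cells (39.3% of all genes) and 6 for JUN with induction (43.4%).

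Levels of different members were compared per kilobase of merged exons, that is CPM divided by the length of all annotated exons of a gene. On this scale AREG stood above the other 9 members in each group. Its length-scaled mean was 130.0 in vector EtOH and 349 in vector Dox, and JUN cells reached 481 with EtOH and 999 with Dox. In vector EtOH it was followed by ERRFI1 (11.9), EGFR (8.05), ERBB2 (6.31), TGFA (5.76), EREG (2.70), HBEGF (2.68), BTC (0.931), ERBB3 (0.846) and NRG1 (0.0754), where ERBB2 and TGFA, and EREG and HBEGF, overlapped between libraries. In vector Dox the length-scaled level of NRG1 was 1.22 and overlapped those of EREG (1.20) and ERBB3 (1.12), and BTC (0.529) was lowest. In JUN EtOH the second place was shared by EREG (16.1), TGFA (15.2), HBEGF (12.3) and EGFR (11.8), each overlapping the next in order. In JUN Dox EGFR (17.4) and TGFA (15.3) overlapped, as did HBEGF (8.06), EREG (7.55) and ERRFI1 (6.90), and ERBB3 (0.451) and NRG1 (0.424) did so at the bottom. NRG1 and EGFR have many annotated exons (21372 and 15941 merged bases, against 1642 for AREG), which lowers their length-scaled level. With the length of the canonical transcript instead, some neighbours changed places and AREG stayed first in the 4 groups.

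Of the summed length-scaled level of the 6 ligands, AREG made up 90.6 to 92.0% in vector EtOH libraries and 95.6 to 96.9% in vector Dox libraries, and in JUN cells 90.8 to 91.9% with EtOH and 96.8 to 97.0% with Dox. Its share was thus higher in both Dox groups, with no overlap with the EtOH groups. With EPGN added to the sum, the shares were 77.5 to 79.7%, 89.4 to 92.9%, 75.9 to 79.2% and 84.3 to 84.5% in the same order. These shares carry the uncertainty of AREG and AREGB.

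**Figure D4:**
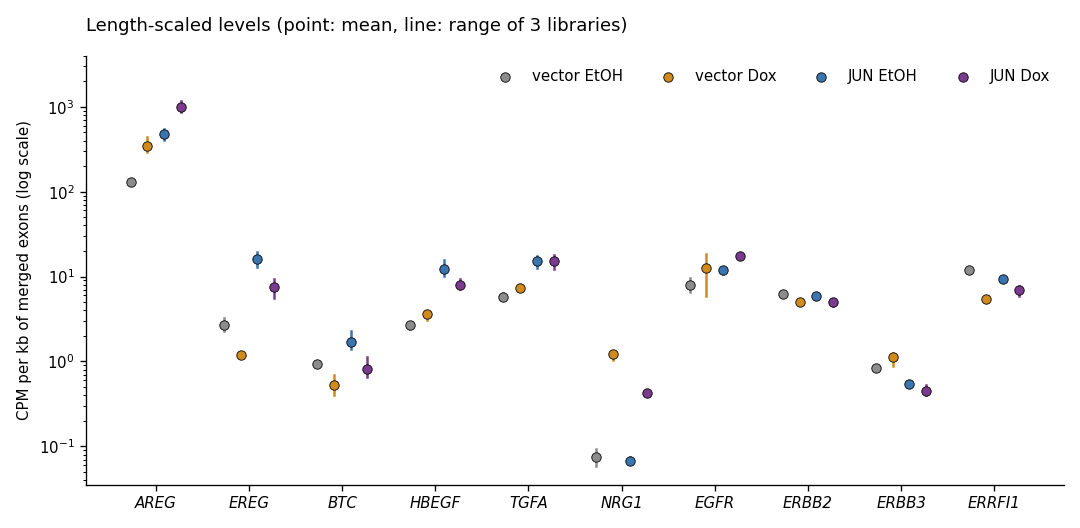
CPM per kilobase of merged exons (y axis, log scale) of the 10 members in the 4 groups, with a point at the mean and a line over the range of the 3 libraries. AREG stands above the other members in each group, up to 999 in JUN Dox, and NRG1 is lowest in 3 of the 4 groups.

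Genes whose pattern was most like that of a member were named by the root mean square (RMS) of the difference in centred log2 CPM over the 12 libraries, among 11404 genes, as a description with no test. The 12 libraries share their groups and their scaling. AREG was closest to PGAM1P5 (RMS 0.160) and NTN4 (0.241), which overlap on chromosome 12 and can share reads. EREG was closest to DNER (0.230), STC1 (0.278) and AMPD3 (0.283), and HBEGF to SDC1 (0.247), GSDME (0.248) and CHST7 (0.249). TGFA had TICAM2 (0.0981), SEMA3C (0.125) and LGR4 (0.129) nearest, and BTC had LPAR5, AGPAT4 and CYP4V2 (0.271 to 0.274). NRG1 was nearest to IRS1 (0.210), which averaged 8.74 CPM with EtOH and 108 with Dox in vector cells and 6.77 and 45.8 CPM in JUN cells, and then to PLK2 (0.383) and CCN2 (0.417). For EGFR the nearest were MAP3K9 (0.165) and the overlapping EGFR-AS1 (0.171). ERBB2 had PYGO2 (0.0456), AP2M1 (0.0552) and SHC1 (0.0635), ERBB3 had CXCL16 (0.170), CCNO (0.173) and HS6ST1 (0.184), and ERRFI1 had RGS12 (0.130), FAM8A1 (0.138) and RIGI (0.148). Between members the closest pairs were ERBB2 with ERRFI1 (0.322) and HBEGF with TGFA (0.345). The difference was not scaled, so it is small between genes that vary little. The RMS of the centred values themselves was 0.159 for ERBB2 and 0.436 for ERRFI1, against 1.43 for EREG and 1.73 for NRG1. The distance of ERBB2 from ERRFI1 was thus above the variation of ERBB2 itself, and no shared pattern is drawn from it.

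The rest of the pathway was followed with 5 lists of 64 genes, of which 63 were tested. EGF itself was not tested, at 0.0355 to 0.674 CPM. Without induction, JUN raised 32 (50.8%) and lowered 8 (12.7%) of the 63, where 20.1% and 18.9% of all genes were called, with a median log2 fold change of 0.35 against 0.00056 over all genes. With induction it raised 22 (34.9%) and lowered 4 (6.3%), beside 18.4% and 17.2% of all genes (median 0.27 against 0.0030). YAP5SA induction raised 10 (15.9%) and lowered 14 (22.2%) in vector cells, beside 15.6% and 14.4% (median -0.10 against 0.0072). In JUN cells it raised 7 (11.1%) and lowered 8 (12.7%), beside 11.2% and 10.3% (median -0.12 against 0.0032), so the counts higher on induction lay at the share of all genes. The interaction was called for 5 (7.9%), each lower, beside 0.826% of all genes.

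The list of sheddases, the proteases that release the ligands, and of iRhom proteins, which carry ADAM17 to the cell surface, also held FRMD8. JUN raised 7 and lowered 2 of these 10 genes without induction (70.0% and 20.0%, beside 20.1% and 18.9% of all genes). It raised 5 with induction (50%, beside 18.4%). ADAM9 was higher with JUN by 0.96 on the log2 scale without induction (SE 0.18, adjusted p = 0.00101) and by 0.67 with it (adjusted p = 0.0108, and 0.0570 without JUN Dox replicate 1). The iRhom gene RHBDF1 was higher by 0.90 (SE 0.16, adjusted p = 0.000459) and 0.89 (adjusted p = 0.000573). ADAM12 was lower with JUN without induction (-0.62, SE 0.19, adjusted p = 0.0195) and with induction in vector cells (-0.59, adjusted p = 0.0288), and each call was lost in 3 of 12 fits without 1 library, among them that without vector EtOH replicate 1 (adjusted p up to 0.0948 and 0.143). ADAM17, the main sheddase of AREG, HBEGF and TGFA, was higher with JUN by 0.59 without induction (SE 0.13, adjusted p = 0.00236) and by 0.49 with it (SE 0.13, adjusted p = 0.00849). Induction raised none of the 10 and lowered 3 in vector cells, among them ADAM15 (-0.42, SE 0.12, adjusted p = 0.0154, and 0.0508 without vector EtOH replicate 3), and 2 in JUN cells, among them FRMD8 (-0.56, SE 0.18, adjusted p = 0.0367), whose call was lost without JUN Dox replicate 2 or 3 or JUN EtOH replicate 1 or 2 (adjusted p up to 0.134).

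Of 14 receptor brakes, JUN raised 6 and lowered 2 without induction (42.9% and 14.3%, beside 20.1% and 18.9% of all genes) and raised 5 and lowered 2 with it (35.7% and 14.3%, beside 18.4% and 17.2%). The ubiquitin ligase CBLB, which marks EGFR for degradation, averaged 4.19 ± 0.74 CPM with EtOH and 1.88 ± 0.50 with Dox in vector cells, and 8.87 ± 1.56 and 6.61 ± 0.45 CPM in JUN cells. It fell with induction in vector cells (-1.15, SE 0.22, adjusted p = 0.00101) and was higher with JUN in both settings (1.08 and 1.80). LRIG1, a membrane protein that lowers ERBB receptor levels, was 0.51 higher with JUN without induction (adjusted p = 0.0170) and 1.02 higher during it (SE 0.15, adjusted p = 0.000137). LRIG1 was 0.46 higher with induction in JUN cells (adjusted p = 0.0405), a call lost in 6 of 12 fits without 1 library (JUN Dox replicate 1 or 2, JUN EtOH replicate 2 or 3 or vector EtOH replicate 1 or 3, adjusted p up to 0.158). RNF41, a ubiquitin ligase for ERBB3, was higher with induction in vector cells (0.41, SE 0.095, adjusted p = 0.00446) and lower with JUN without induction (-0.27, adjusted p = 0.0353) and during it (-0.81, SE 0.096, adjusted p = 1.6e-05).

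Of the 21 adaptors and kinases of the RAS, ERK and PI3K routes, JUN raised 9 and lowered 1 without induction (42.9% and 4.8%, beside 20.1% and 18.9% of all genes) and raised 8 with it (38.1%, beside 18.4%). Induction raised 3 and lowered 5 in vector cells (14.3% and 23.8%, beside 15.6% and 14.4%) and lowered 2 in JUN cells (9.5%, beside 10.3%). PIK3R1, the regulatory subunit of PI3K, averaged 101 ± 14.4 CPM with EtOH and 44.5 ± 11.9 with Dox in vector cells and 133 ± 1.17 and 57.4 ± 3.61 CPM in JUN cells, and fell with induction in both backgrounds (-1.18 and -1.21). The RAS exchange factor SOS2 fell with induction (-0.82 and -0.46) and was higher with JUN (0.89 and 1.25), and its fall in JUN cells was lost without JUN Dox replicate 2 or 3 or JUN EtOH replicate 1 or 2 (adjusted p up to 0.123). The adaptor GAB2 rose with induction in vector cells (1.18, SE 0.26, adjusted p = 0.00313) and with JUN without induction (1.66, SE 0.26, adjusted p = 0.000179).

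The 13 genes known to follow ERK activity did not move one way. JUN raised 9 and lowered 2 of them without induction (69.2% and 15.4%, beside 20.1% and 18.9% of all genes) and raised 3 and lowered 2 with it (23.1% and 15.4%, beside 18.4% and 17.2%). Induction raised 5 and lowered 3 in vector cells (38.5% and 23.1%, beside 15.6% and 14.4%) and raised 4 and lowered 2 in JUN cells (30.8% and 15.4%, beside 11.2% and 10.3%). DUSP5, a nuclear phosphatase of ERK, averaged 17.0 ± 0.55 CPM with EtOH and 84.7 ± 6.56 with Dox in vector cells, and 33.7 ± 6.15 and 99.2 ± 7.27 CPM in JUN cells. DUSP6, the cytoplasmic phosphatase of ERK, averaged 75.7 ± 7.34, 29.3 ± 3.54, 94.0 ± 5.96 and 31.5 ± 3.34 CPM in the same order. Induction thus moved these phosphatases in opposite directions, DUSP5 by 2.31 (SE 0.13, adjusted p = 6.87e-09) and 1.56 on the log2 scale and DUSP6 by -1.37 and -1.58 in vector and JUN cells. The cyclin gene CCND1 rose with induction in vector cells (1.46, SE 0.12, adjusted p = 6.23e-07) and was lower with JUN during induction (-1.12, SE 0.12, adjusted p = 7.41e-06).

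**Figure D5:**
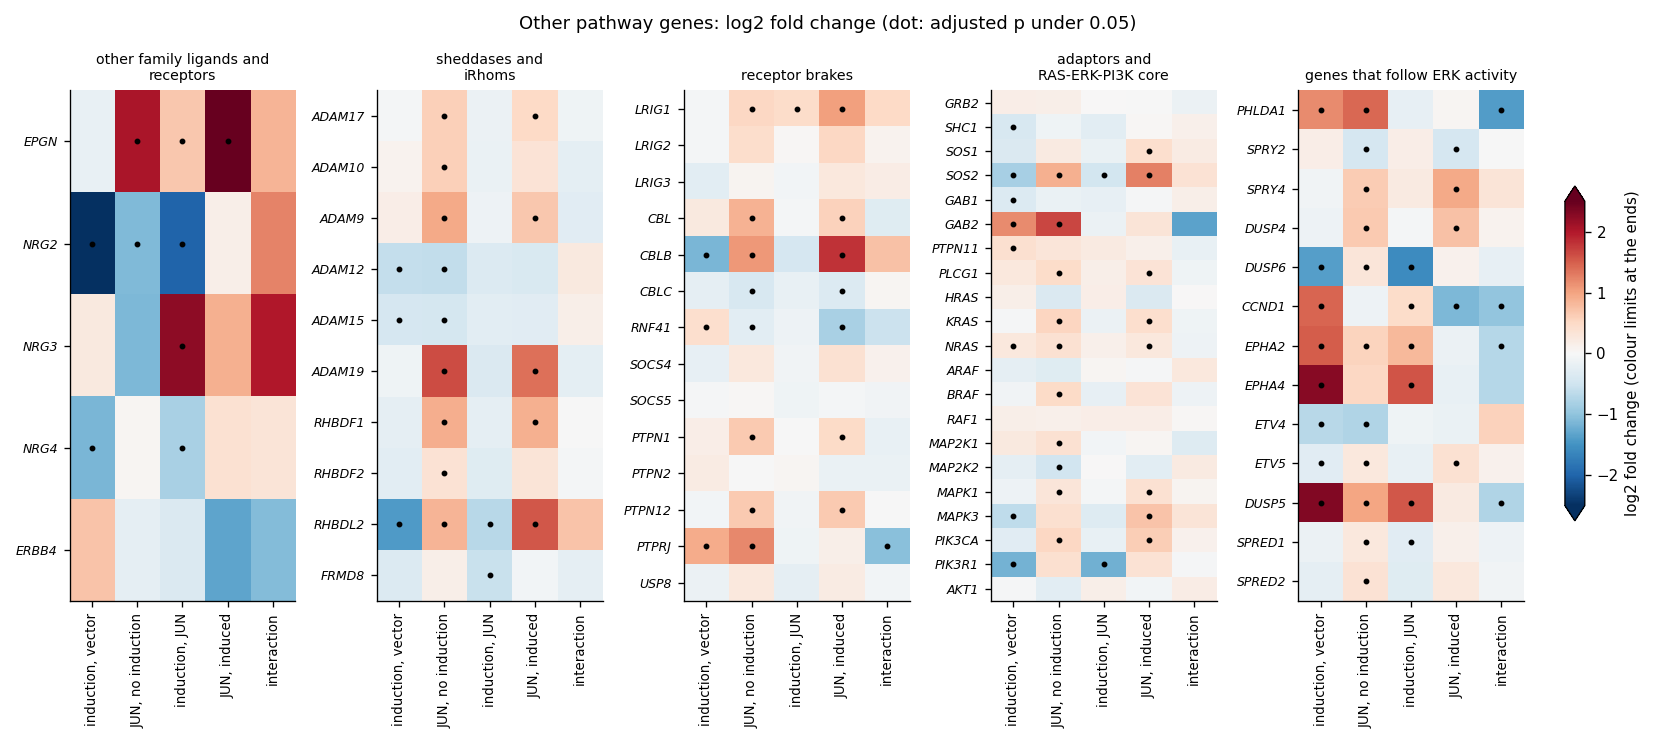
Log2 fold change (colour, limits at the ends of the scale) of the 63 tested genes of the 5 pathway lists in the 4 pairwise comparisons and the interaction, with a dot where the adjusted p is under 0.05. The column for JUN without induction has the most dots on red, 32 against 8 on blue, and the 5 dots of the interaction are on blue.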

How the data were processed

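RNA was measured in 12 libraries of MCF10A cells, 3 in each of 4 groups taken from the sample titles. The deposited table holds counts of whole reads for each gene, which the authors did not normalize. Per the study's methods, the authors sequenced poly(A) RNA single-end, trimmed reads with Cutadapt (version 4.2 in the submitters' processing notes), aligned them to hg19 with Bowtie2 (2.3.5.1 in those notes) and counted them with countOverlaps of GenomicRanges. The gene annotation and any use of strand are not given in the sources used here, so overlapping genes can share reads. Bowtie2 does not split reads over introns, so reads over exon junctions are largely lost, alike in all libraries, and it places a read with several equal matches at one of them.

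Levels are CPM with library sizes scaled by TMM. Log2 fold changes and p-values came from edgeR 4.0.16 (R 4.3.3), 1 robust quasi-likelihood model with a mean per group over the 12 libraries, after filterByExpr by group (minimum count 10, minimum total 15), with Benjamini-Hochberg adjustment over 14775 genes. SE is the log2 fold change over the square root of its F statistic. The biological coefficient of variation was 12.5%. A count of 3 corresponds to 0.107 to 0.150 CPM, which covers counting error only, since reads carried no molecular identifiers. Tested on simulated data for induction in vector cells (14775 genes, 200 of them changed), the fit recovered 79% of genes changed by 1 on the log2 scale. It recovered 99% of those changed by 2, and 9 unchanged genes were called. In the data 30.1% of genes were called in this comparison, so these percentages need not hold there. Symbols were matched for 99.4% of the gene IDs through RefSeq. Positions are GENCODE v44lift37 on GRCh37, the assembly of hg19.

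The members, lists and tests were chosen with earlier results of these data known. Besides the 10 members, JUN, YAP1 and genes overlapping members, the 3 genes per pathway list and pairwise comparison with the largest change, if called and averaging 5 CPM or more, are named, and the 3 genes closest in pattern to each member, some of which are not reported here. Alternatives were DESeq2 1.42.0, RLE and upper-quartile scaling, no filter, a minimum mean of 5 CPM, the libraries of a comparison alone, the replicate number as a block, a term for GC deviation, both together, and each library left out in turn.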

Additional observations from a re-analysis of the deposited data

Results flagged for a closer look

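HBEGF was called in the main fit for a different response to YAP5SA induction in JUN and vector cells. The log2 induction was -0.61 in JUN cells and 0.45 in vector cells, the latter not called (edgeR adjusted p = 0.0694). The difference of -1.06 passed the test of the interaction (edgeR adjusted p = 0.0464). Every JUN Dox library was below every JUN EtOH library, and every vector Dox library was above every vector EtOH library. In either direction, groups did not overlap for 39.3% of all genes for induction in JUN cells and 43.9% in vector cells. This separation thus carries little on its own. Over the alternatives the adjusted p of this difference ranged from 0.00328 to 0.142. The call held in 9 of 20 alternatives and was lost in 9 of the 12 fits that left out 1 library.

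NRG1 also differed between the backgrounds. Its log2 induction was 2.64 in JUN cells and 3.99 in vector cells, both upward, and the difference of -1.35 passed the same test (edgeR adjusted p = 0.0151). Over the alternatives its adjusted p ranged from 0.000571 to 0.0653. The call held in 18 of 20 alternatives and was lost without JUN EtOH replicate 1 or vector EtOH replicate 3. Beyond leaving out 1 library in turn, groups of 3 libraries were not searched for a single outlying library.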

How the results depend on the processing

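Of 50 results for the members (10 members in 5 comparisons), 26 kept their direction and their side of the threshold under every alternative run, and 19 of the 28 called were among them. These included AREG and EREG in the 4 pairwise comparisons, HBEGF and TGFA with JUN in both settings, NRG1 in both inductions and with JUN during induction, and ERBB3 with JUN in both settings. The number of members called higher on induction in vector cells was 2 and became 5 with the GC term, with the replicate block and with both together, by the addition of HBEGF (adjusted p = 0.0192 with the block), TGFA (0.0360) and ERBB3 (0.0494). It was not settled whether replicate numbers pair the samples. Deviations of libraries with the same number correlated from -0.26 to 0.47 (median 0.088), other pairs from -0.47 to 0.31. For 7 of 12 libraries the mean correlation was highest with libraries of their own number. In the interaction, 165 genes were called, 340.0 by DESeq2, 272 with the GC term and 261 with the block and GC term, and the latter 3 called 1 member, ERRFI1, and 1 pathway gene higher, against 0 (edgeR, with 1330 of all genes at an unadjusted p under 0.05). For pathway genes the same count of 1 was reached with no filter, the block alone and upper-quartile factors. With a minimum mean of 5 CPM and with upper-quartile factors 1 member was called lower in the interaction, since HBEGF reached adjusted p = 0.0511 and 0.0535. JUN with induction called 5267 genes and 3439 in the libraries of that comparison alone, where ERRFI1 was lost (adjusted p = 0.119). In those alone EGFR was called with JUN without induction (adjusted p = 0.00117) and with induction in JUN cells (0.00341), for which vector Dox replicate 1 is not in the fit. Pathway genes called lower with JUN during induction numbered 4, 8 with the GC term, 8 with the block and GC term and 2 in the libraries of the comparison alone, and those called higher on induction in JUN cells fell from 7 to 4 with a minimum mean of 5 CPM. Directions turned for results that were not called: TGFA on induction in JUN cells (0.012) was -0.0010 with RLE size factors, -0.017 with a minimum mean of 5 CPM and -0.012 with upper-quartile factors, and the interaction of EGFR was 0.033 with the block and GC term. The cause of these shifts was not tested.

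With 1 library left out in turn, members called higher on induction in vector cells numbered 2 to 4 (4 without vector Dox replicate 1). Genes called with JUN without induction numbered 3823 to 6765 (lowest without JUN EtOH replicate 1), with induction in JUN cells 2082 to 3861 (lowest without JUN EtOH replicate 2) and in the interaction 97 to 242. Members called lower numbered 1 to 2 with JUN without induction, 2 to 4 on induction in JUN cells (2 without JUN EtOH replicate 1) and 0 to 2 in the interaction, and those called higher in the interaction 0 to 1. Pathway genes called lower numbered 4 to 9 with JUN without induction, 3 to 9 on induction in JUN cells, 2 to 6 with JUN during induction and 2 to 6 in the interaction, and those called higher in the interaction 0 to 1. Log2 values that turned ranged from -0.32 to 0.032 for NRG1 with JUN without induction, -0.11 to 0.16 for TGFA and -0.15 to 0.035 for JUN on induction in JUN cells, -0.063 to 0.047 for ERBB2 with JUN during induction, and in the interaction -0.079 to 0.26 for EREG, -0.41 to 0.30 for EGFR and -0.36 to 0.032 for YAP1. Adding AREGB to AREG was not run, because the table has no such row, and BTC has no value under a minimum mean of 5 CPM. Levels of the members moved by less than 1 SD without TMM scaling. The low counts of BTC and NRG1 (from 24 and 25 per library) limit the precision of their folds.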

Other observations

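Of the pathway genes, 5 were called in the interaction, each with a smaller log2 induction in JUN cells, and they were named after their values were seen (edgeR adjusted p in brackets). PHLDA1, an early response gene, averaged 105 ± 12.2 CPM with EtOH and 237 ± 16.6 with Dox in vector cells, and 285 ± 42.9 and 246 ± 12.2 CPM in JUN cells, with a difference of inductions of -1.39 (0.000488). The cyclin gene CCND1 averaged 242 ± 30.9 and 664 ± 75.2 CPM in vector cells and 222 ± 15.9 and 306 ± 22.1 in JUN cells, with -0.99 (0.00879). The receptor phosphatase gene PTPRJ averaged 7.14 ± 1.03 and 13.6 ± 0.31 CPM in vector cells and 16.4 ± 1.85 and 15.2 ± 2.79 in JUN cells, with -1.04 (0.0207). The ephrin receptor gene EPHA2 (-0.72, 0.0337) and DUSP5 (-0.76, 0.0493) rose with induction in both backgrounds. With 1 library left out in turn, the number called lower was 2 to 6, and it fell to 2 or 3 in 9 of 12 fits. The call of DUSP5 was lost in 11 of 12 fits (all but that without JUN EtOH replicate 3, adjusted p up to 0.150), that of EPHA2 in 9 (all but those without JUN Dox replicate 1, JUN EtOH replicate 3 or vector Dox replicate 1, up to 0.122) and that of PTPRJ in 7 (without JUN Dox replicate 2 or 3, JUN EtOH replicate 1 or 2, vector Dox replicate 3 or vector EtOH replicate 1 or 3, up to 0.0828), whereas PHLDA1 and CCND1 were called in each of the 12.

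Among family genes outside the members, the neuregulin gene NRG4 averaged 7.16 ± 0.33 CPM with EtOH and 3.26 ± 0.26 with Dox in vector cells, a log2 fold change of -1.14 (edgeR adjusted p = 0.000638), and 7.39 ± 2.09 and 4.25 ± 0.67 CPM in JUN cells, with -0.81 (0.00881, and 0.0555 without JUN EtOH replicate 1).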
